A study of Mus musculus with 24 samples.

Results

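Skin of allografted mice treated with an antibody against IFNAR1, the first chain of the type I interferon receptor, was compared between day 28 and day 14 after grafting. The samples were the 4 arrays labelled anti-IFNAR1 at day 28 and the 4 labelled anti-IFNAR1 at day 14, 8 of the 24 arrays in the series, chosen by their titles alone. All hosts were female RAG2-/- mice, which make no T or B lymphocytes of their own, and shaved skin from the dorsal scapular region was frozen for RNA. The anti-IFNAR1 mice and the isotype antibody mice received B10.D2 splenocytes, the graft that gives the sclerodermatous graft-versus-host model (GVH-SSc), while the syngeneic mice received Balb/c splenocytes. Each of these 3 treatments had 4 arrays at day 28 and 4 at day 14. The labels used here do not give the mice's age, the antibody dose or schedule, any antibody in the syngeneic mice, or whether each array stands for its own animal, so p-values measure the spread between arrays, which may be partly technical. The comparison asks how the skin changed between these days in mice given the antibody.

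Type I interferons bind the receptor formed by IFNAR1 and IFNAR2 and, through JAK1, TYK2 and the STAT factors, switch on antiviral genes that carry an interferon-stimulated response element in their promoters. Interferon gamma, made by T and natural killer cells, uses another receptor, raises many of the same genes and also drives MHC class II presentation and the chemokines CXCL9 and CXCL10. In this graft model donor T cells and recruited myeloid cells enter the skin, and thickening of the dermis follows.

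Levels are log2 of the deposited intensity plus 16, on which an intensity of 0 would read 4. Median array intensities lay between 14.8 and 17.7, and 49% to 50.9% of probe sets on each array were below 16, so folds of dim genes are understated. The epidermal keratin Krt14 averaged 14.48 ± 0.07 at day 28 and 14.69 ± 0.20 at day 14 (SD, n = 4 each). The host's Rag2 probe set read 4.58 ± 0.04 at day 28 and 4.60 ± 0.03 at day 14, near the bottom of the scale. Arrays differed in the log2 ratio of the 3′ to the 5′ Gapdh control probe sets, a sign of RNA integrity: it was 3.85, 1.83, 1.21 and 1.55 on day 28 replicates 1 to 4 and 2.13, 2.28, 4.81 and 4.19 on day 14 replicates 1 to 4. Day 28 replicate 2 stood apart from the other 7 arrays by its hair genes, as described further on.

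In anti-IFNAR1 skin the genes that fell by day 28 included Saa3, Fpr2, Csf1r, Ctss and Cybb of phagocytes and inflamed tissue and Cd3d, Gzmk and Cxcr6 of T cells, and the genes that rose had smaller changes. Only 11 of the called genes were on any of the gene lists, so no theme is given for the calls as a whole. Of 18193 genes tested with limma, 101 (0.555%) had an adjusted p under 0.05, 70 lower (0.385%) and 31 higher (0.170%) at day 28. The median log2 fold change was -1.36 among the lower calls and 0.63 among the higher calls, against 0.0021 over all genes. At least 2-fold changes were carried by 49 of the lower and 4 of the higher calls. The day 28 and day 14 arrays did not overlap for 99 of the 101 calls, against 1815 of all genes (9.98%). The calls were made on these same arrays, so this separation follows largely from the selection and adds no separate evidence. At an unadjusted p under 0.05 there were 1533 higher (8.43%) and 835 lower (4.59%) genes, so the wider, weaker tail ran the other way from the calls.

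The number of calls depended on single arrays. Each of the 101 genes kept its direction in all the settings it was measured in. For the 99 calls without overlap, leaving out 1 array cannot turn the direction, so those fits do not test it. Leaving out day 14 replicate 4 left 1 call and leaving out day 14 replicate 3 left 7, and these are the pair with the highest Gapdh ratios. Without day 14 replicate 1 there were 43 calls and without day 14 replicate 2 there were 166. Without day 28 replicates 1, 2, 3 and 4 in turn there were 13, 43, 21 and 25 calls. With both high-ratio day 14 arrays and the other arrays of high ratio removed, 3 genes were called, whereas with the Gapdh ratio as a covariate 103 were called, 44 higher and 59 lower, of which 68 were among the 101. A single gene was called without each of the 8 arrays in turn, Angptl7, a secreted angiopoietin-like protein, at 4.53 ± 0.08 at day 28 and 5.10 ± 0.15 at day 14 (SD, n = 4 each), both dim. The other calls each fail in at least 1 of these fits, and many fail in most of them. Saa3, Fpr2, Vcam1, Cybb, Gzmk, Ifi44l, Sncg and Tmem119 each passed in only 1 of the 8 fits, whereas Csf1r and Cd3d passed in 6.

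**Figure D1:**
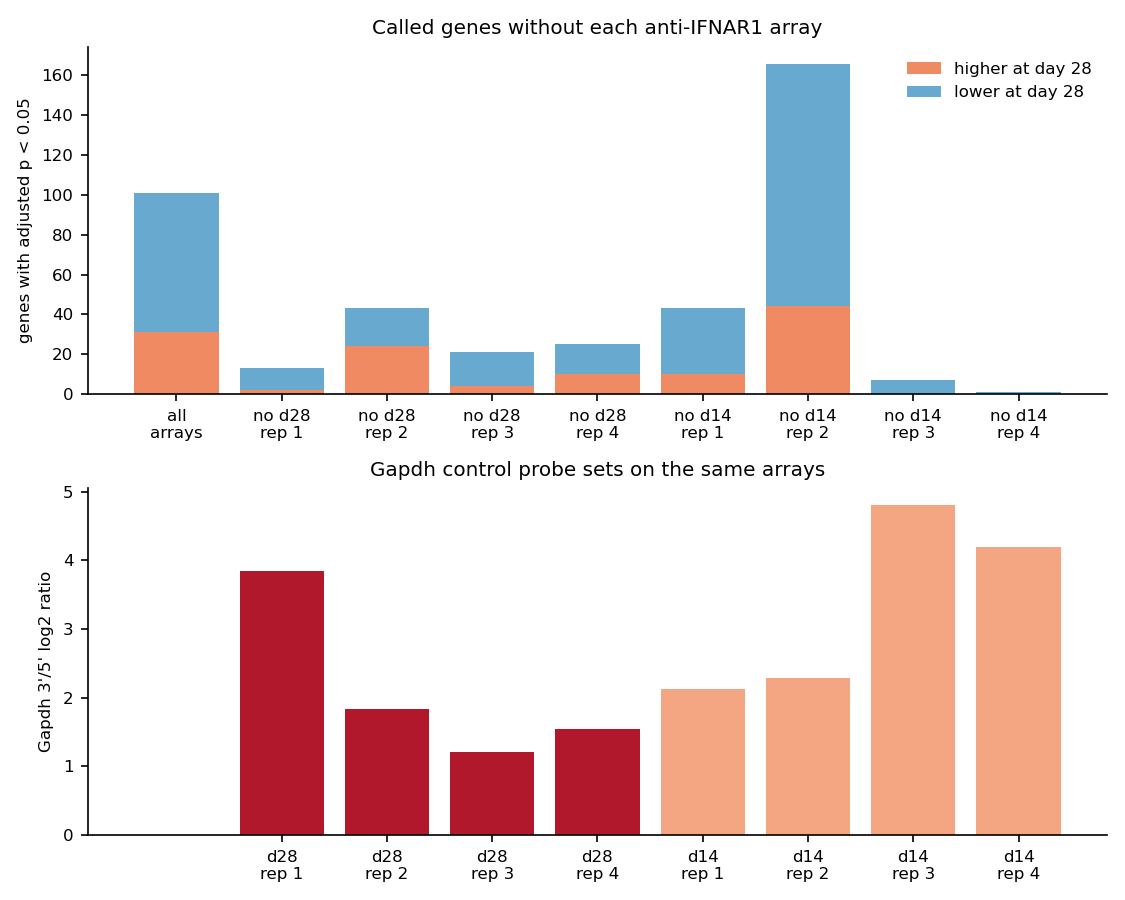
Upper panel: number of genes with an adjusted p under 0.05 between day 28 and day 14 in anti-IFNAR1 skin, with all arrays and without each of the 8 arrays, split into higher (orange) and lower (blue) at day 28. Lower panel: log2 ratio of the 3′ to the 5′ Gapdh control probe sets on the same arrays, day 28 in dark red and day 14 in light red. The count falls to 7 and 1 without day 14 replicates 3 and 4, which have the ratios 4.81 and 4.19.

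The targeted receptor itself was measured in both groups. Ifnar1 read 7.36 ± 0.48 at day 28 and 8.11 ± 0.13 at day 14 (SD, n = 4 each), a log2 fold change of -0.74 ± 0.29 (SE) that did not pass the test (limma adjusted p = 0.27). Ifnar2, the partner chain, had a log2 fold change of -0.18 ± 0.34 (adjusted p = 0.94). An antibody acts on the protein, so these levels do not check the treatment.

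Among the largest falls were the acute phase gene Saa3 and genes of inflammatory myeloid cells. Of 15 complement and acute phase genes measured, Saa3 was the only 1 called by limma. On that list 6 were lower at an unadjusted p under 0.05 (all genes 4.59%), and the median change was -0.56. Saa3, an acute phase serum amyloid made by macrophages and other cells at sites of inflammation, read 9.02, 8.4, 8.39 and 7.83 on the day 28 arrays and 12.2, 11.27, 13.78 and 11.95 on the day 14 arrays. The groups were far apart, and Saa3 had the largest change of all calls, -3.89 ± 0.77 on the log2 scale (SE, limma adjusted p = 0.03). F7, the coagulation factor that pairs with tissue factor, read 4.98, 5.5, 4.75 and 4.41 at day 28 and 8.18, 7.42, 8.62 and 8.73 at day 14. All 4 day 28 values of F7 lay near the bottom of the scale, and its change was -3.33 ± 0.56 (adjusted p = 0.018). Fpr2, a formyl peptide receptor of phagocytes, read 7.52, 7.76, 7.85 and 6.71 at day 28 and 10.02, 9.39, 11.71 and 10.4 at day 14, a change of -2.92 ± 0.62 (adjusted p = 0.041). Its spread was wider at day 14, with replicate 3 the highest. Vcam1, the adhesion molecule by which activated endothelium holds leukocytes, averaged 8.52 ± 0.40 at day 28 and 10.65 ± 0.58 at day 14 (SD, n = 4 each), a change of -2.13 ± 0.46 (adjusted p = 0.043). Vcam1 was the only 1 of 19 endothelial genes on the list to be called, and the list's median change was 0.11.

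Of 27 macrophage and monocyte genes measured, 2 were called, both lower, 15 were lower at an unadjusted p under 0.05 (all genes 4.59%) and 18 were lower without overlap of the arrays (all genes 4.05%), with a median log2 fold change of -1.01. No gene of the list was called without day 14 replicate 3 or without day 14 replicate 4, where the median was -1.02 and -1.0. Csf1r, the receptor for the macrophage growth factor CSF1, read 12.52, 11.8, 12.43 and 12.55 at day 28 and 13.13, 13.13, 13.46 and 13.24 at day 14. Every day 28 array was below every day 14 array, by less than 2-fold in the mean: the change was -0.91 ± 0.16 (adjusted p = 0.018). C1qb, a chain of the first complement component that tissue macrophages make, read 13.16, 12.33, 13.2 and 12.54 at day 28 and 14.03, 13.67, 14.28 and 14.05 at day 14, a change of -1.20 ± 0.23 (adjusted p = 0.03). Larger changes on the list did not pass, as for Clec4d, a C-type lectin of monocytes, which read 5.65, 5.57, 5.43 and 5.59 at day 28 and 7.75, 7.45, 9.99 and 8.2 at day 14 (-2.79 ± 0.65, adjusted p = 0.057). Fcgr4, an activating Fc receptor, changed by -2.69 ± 0.71 (adjusted p = 0.093) and Msr1, a scavenger receptor, by -2.15 ± 0.57 (adjusted p = 0.094). In bulk skin, fewer cells of a type and less RNA per cell cannot be told apart. Of 14 neutrophil genes none was called by limma or passed an unadjusted p under 0.05, and 11 had values below 0. The neutrophil median was -0.19, and it lay between -0.04 and -0.37 without single arrays, but the difference from the macrophage list was not tested.

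Several further called genes work in myeloid signalling and killing. Ctss, the lysosomal cathepsin S that trims the invariant chain for class II loading, read 13, 13.15, 13.04 and 12.98 at day 28 and 14.93, 14.47, 15.23 and 14.81 at day 14. The day 28 values were tightly grouped, and the change was -1.82 ± 0.33 (adjusted p = 0.019). Cybb, the catalytic chain of the phagocyte NADPH oxidase, averaged 9.14 ± 0.20 at day 28 and 11.02 ± 0.50 at day 14, a change of -1.88 ± 0.39 (adjusted p = 0.035). Ly86, the partner of the Toll-like receptor homologue RP105, changed by -1.80 ± 0.36 (adjusted p = 0.03), and Lst1, a leukocyte transcript of the MHC region, by -1.92 ± 0.42 (adjusted p = 0.047). Aoah, which inactivates bacterial lipopolysaccharide, read 5.11, 5.31, 5.16 and 5.52 at day 28 and 7.09, 6.32, 7.49 and 7.01 at day 14 (-1.70 ± 0.25, adjusted p = 0.012). Aoah was among the calls that held best, passing without 7 of the 8 arrays. Signalling genes of haematopoietic cells among the calls were Pik3r5 (-1.88 ± 0.33), a regulatory subunit of PI3 kinase gamma, Syk (-1.07 ± 0.22), the tyrosine kinase downstream of Fc receptors and C-type lectins, and Was (-1.48 ± 0.22), the Wiskott-Aldrich actin regulator, with adjusted p of 0.018, 0.035 and 0.012 in that order. Gsdmd, the pore-forming executor of pyroptosis, changed by -1.40 ± 0.26 (adjusted p = 0.02), and the NAIP inflammasome sensors Naip5 and Naip2 by -1.45 ± 0.31 (adjusted p = 0.038) and -1.28 ± 0.27 (adjusted p = 0.043). The Naip genes are close copies of each other, so their probe sets may share signal.

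**Figure D2:**
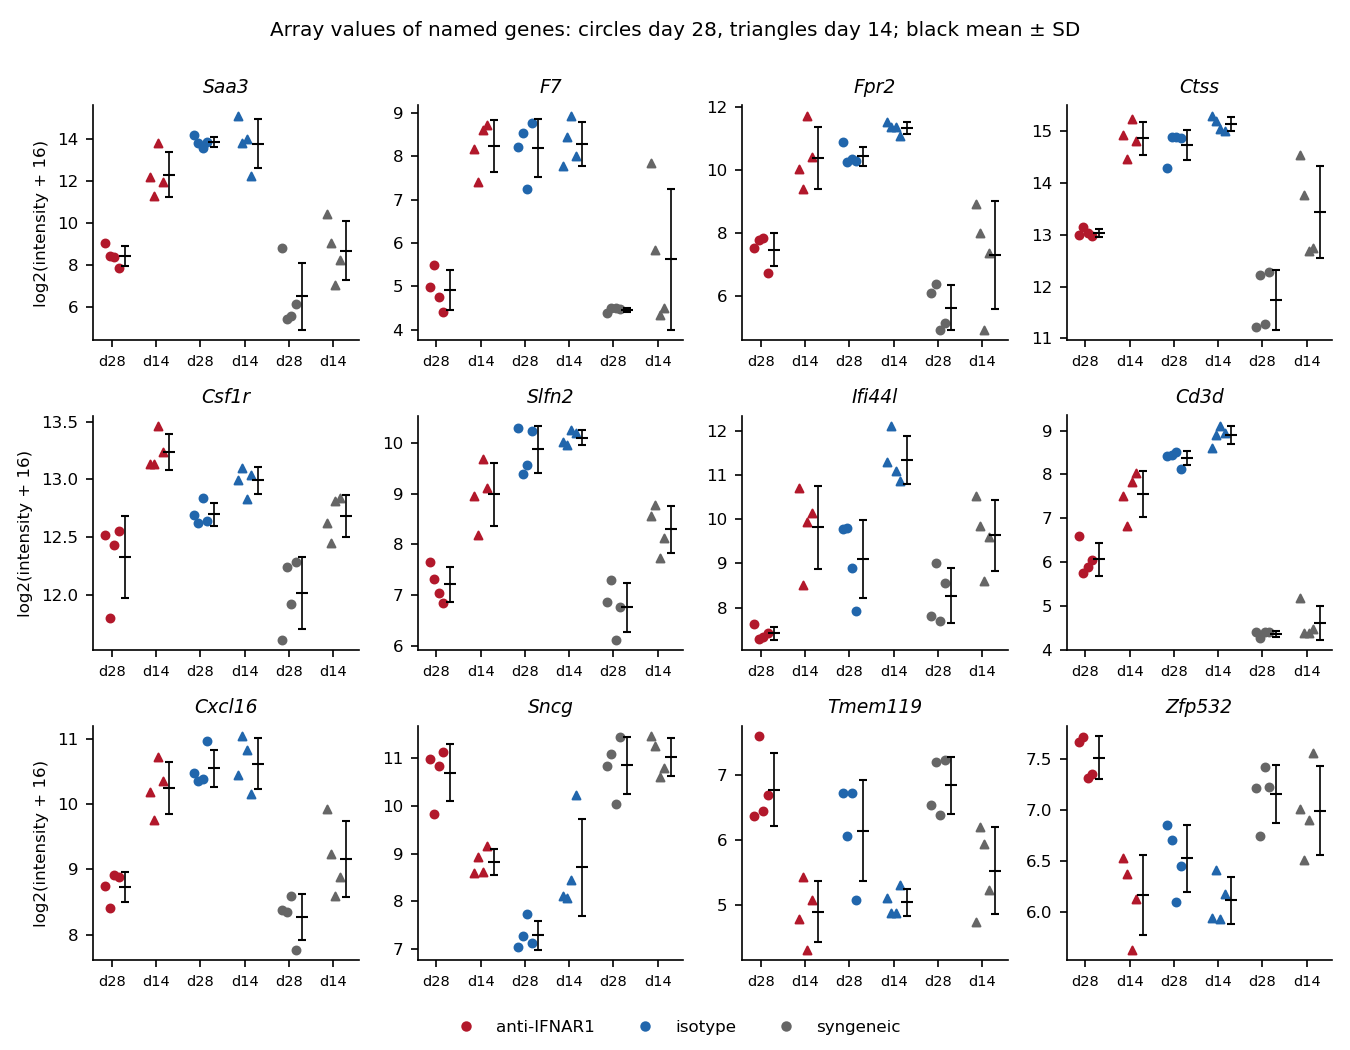
Levels of 12 named genes as log2 of intensity plus 16 on each array, day 28 (circles) left of day 14 (triangles) for anti-IFNAR1 (red), isotype (blue) and syngeneic (grey) skin, with black marks for mean ± SD of 4 arrays. In anti-IFNAR1 skin the day 28 arrays lie below all day 14 arrays for the first 9 genes and above them for Sncg, Tmem119 and Zfp532.

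Among antigen presentation genes few passed the test. Of 11 class II presentation genes 1 was called (Ctss), 9 were lower at an unadjusted p under 0.05 (all genes 4.59%) and 9 were lower without overlap (all genes 4.05%), with a median of -0.75. No class II gene was called without the arrays of high Gapdh ratio, where the median was -0.62. Ifi30, the lysosomal thiol reductase of antigen processing, read 10.81, 10.76, 10.81 and 10.78 at day 28 and 11.77, 11.55, 12.24 and 11.86 at day 14, a change of -1.07 ± 0.24 that just missed the threshold (adjusted p = 0.051). H2-Aa, the class II alpha chain, changed by -0.68 ± 0.18 (adjusted p = 0.084) and Ciita, the class II transactivator, by -0.90 ± 0.29 (adjusted p = 0.18). Cd86, a costimulatory ligand of dendritic cells, was called, at 5.64 ± 0.29 at day 28 and 6.97 ± 0.41 at day 14 (-1.33 ± 0.26, adjusted p = 0.03). Cd86 was the only 1 of 15 Langerhans and dendritic cell genes to be called, and that list had a median of -0.04 with 5 values above 0. Pdcd1lg2, the second ligand of the checkpoint receptor PD-1, read 5.07, 5.1, 4.56 and 4.74 at day 28 and 7.99, 6.57, 8.57 and 7.71 at day 14. It was the 1 call among 13 checkpoint genes, with a change of -2.84 ± 0.58 (adjusted p = 0.035). For class I, none of 12 genes was called by limma, 4 were lower at an unadjusted p under 0.05, all 12 values were below 0 and the median was -0.54, led by Psmb10, an immunoproteasome subunit (-0.86 ± 0.33, adjusted p = 0.26).

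The T cell genes Cd3d, Gzmk and Cxcr6 fell, and most other T cell genes had values below 0 that did not pass. Cd3d, which belongs to the CD3 signalling unit of T cells, read 6.59, 5.74, 5.88 and 6.04 on the day 28 arrays and 7.5, 6.83, 7.82 and 8.03 on the day 14 arrays, a change of -1.48 ± 0.23 (adjusted p = 0.013). Gzmk, a granzyme of memory-like cytotoxic T cells, read 5.65, 5.71, 6.36 and 5.6 at day 28 and 7.33, 6.59, 8.07 and 7.44 at day 14 (-1.53 ± 0.31, adjusted p = 0.035). In both genes day 14 replicate 2 was the lowest of its group. Cxcr6, a homing receptor of tissue T cells, read 6.68, 6.12, 6.35 and 6.63 at day 28 and 7.52, 7.52, 8.2 and 8.16 at day 14 (-1.40 ± 0.25, adjusted p = 0.018). Its ligand Cxcl16 was called as well, at 8.75, 8.41, 8.91 and 8.88 at day 28 and 10.18, 9.76, 10.72 and 10.35 at day 14 (-1.51 ± 0.27, adjusted p = 0.018). The receptor and its ligand thus moved the same way, with no overlap between the days in either. Of 18 T cell genes 1 was called and 10 were lower at an unadjusted p under 0.05 (all genes 4.59%), with a median of -0.61, and of 16 cytotoxic lymphocyte genes 1 was called, with a median of -0.49. Cd8a changed by -1.18 ± 0.27 (adjusted p = 0.051) and Ifng, interferon gamma itself, read 5.28, 4.99, 4.82 and 4.96 at day 28 and 6.83, 5.94, 7.69 and 6.71 at day 14 (-1.78 ± 0.44, adjusted p = 0.072). Of 13 B and plasma cell genes 1 was called, Cd22, an inhibitory receptor of B cells (-1.20 ± 0.27, adjusted p = 0.047), and the median was -0.01.

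Chemokine genes had a median of -0.97, with 1 of 25 called (Cxcl16), 10 lower and 1 higher at an unadjusted p under 0.05 (all genes 4.59% lower and 8.43% higher). Without day 14 replicate 3 the chemokine median was -0.59 and none was called. Ccl8, a monocyte and T cell attractant abundant in this skin, averaged 13.38 ± 0.25 at day 28 and 14.96 ± 0.31 at day 14 (-1.58 ± 0.42, adjusted p = 0.096). Ccl5, a T cell and monocyte attractant, had a change of -2.13 ± 0.63 (adjusted p = 0.13). Tnfrsf1b, the second TNF receptor, was called at -1.28 ± 0.26 (adjusted p = 0.035).

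Interferon-inducible genes had values below 0 in nearly every member, but none on either list was called by limma. Of 28 type I interferon-inducible genes 27 had values below 0 and 15 were lower at an unadjusted p under 0.05 (all genes 4.59%), with a median of -1.0. Their mean was 7.62, 7.18, 6.99 and 7.07 on the day 28 arrays and 8.95, 7.53, 8.04 and 8.26 on the day 14 arrays. The groups overlapped here, since day 28 replicate 1 was above day 14 replicate 2. The list's median moved between -0.71 without day 14 replicate 1 and -1.27 without day 14 replicate 2. Ifit1, an antiviral RNA sensor, read 9.53, 8.33, 7.18 and 7.29 at day 28 and 10.56, 8.9, 10.33 and 10.08 at day 14 (-1.88 ± 0.54, adjusted p = 0.12), and Rsad2, the antiviral enzyme viperin, changed by -1.79 ± 0.53 (adjusted p = 0.13).

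Interferon-responsive genes also stood among the calls outside the lists, and the 3 given here were picked after their values were seen. Ifi44l, an interferon-induced gene, read 7.62, 7.3, 7.33 and 7.42 at day 28 and 10.7, 8.5, 9.94 and 10.13 at day 14, a change of -2.40 ± 0.49 (adjusted p = 0.035). Slfn2, a schlafen family gene of leukocytes, read 7.65, 7.31, 7.04 and 6.84 at day 28 and 8.96, 8.18, 9.69 and 9.11 at day 14 (-1.77 ± 0.31, adjusted p = 0.018). Parp14, an ADP-ribosyltransferase, changed by -1.41 ± 0.31 (adjusted p = 0.047).

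The array means of the interferon gamma-inducible list did not overlap between the days. They were 9.45, 9.37, 9.48 and 9.54 at day 28 and 10.96, 10.31, 11.23 and 10.51 at day 14. The day 28 means were close together, and 14 of the 16 genes were lower without overlap (all genes 4.05%), with a median of -1.41. None was called by limma, and 9 were lower at an unadjusted p under 0.05 (all genes 4.59%). Cxcl9, the chemokine most closely tied to interferon gamma, read 10.38, 11.27, 10.4 and 10.75 at day 28 and 12.91, 11.83, 12.69 and 12.03 at day 14 (-1.67 ± 0.90, adjusted p = 0.46). That error pools the spread of all 6 groups, and the syngeneic day 14 arrays of Cxcl9 read 12.78, 11.25, 7.07 and 7.24. With only the arrays compared in the fit, no gene of the list was called either. Gbp6, an interferon-induced GTPase, changed by -1.56 ± 0.53 (adjusted p = 0.20).

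Promoter windows are shown for the called lower genes that hold an interferon-stimulated response element, to place the motif beside the genes that fell. Windows were read from RefSeq promoters (GRCm38.p6, 250 bases before each gene's start), on the gene's strand, 5′ to 3′, with the match in capitals. The letters searched were GAAANNGAAA on both strands, so that a match on the other strand appears as TTTCNNTTTC. The windows lie at chr3:95526740-95526785 (plus strand, Ctss), chrX:9469325-9469378 (minus strand, Cybb), chr7:46715767-46715826 (minus strand, Saa3), chr4:145246871-145246905 (minus strand, Tnfrsf1b) and chr2:73453958-73454017 (minus strand, Wipf1).
Ctss: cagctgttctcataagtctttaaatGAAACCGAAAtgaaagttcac
Cybb: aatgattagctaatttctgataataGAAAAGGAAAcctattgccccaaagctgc
Saa3: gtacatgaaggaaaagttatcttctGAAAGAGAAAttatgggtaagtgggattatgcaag
Tnfrsf1b: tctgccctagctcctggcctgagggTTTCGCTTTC
Wipf1: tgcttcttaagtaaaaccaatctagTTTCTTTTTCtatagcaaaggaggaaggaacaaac
The Ctss match begins 21 bases before the annotated start, the Tnfrsf1b match 10 bases before it, the Cybb match shown 29, the Wipf1 match 103 and the Saa3 match 125. Cybb has 2 further matches, which begin 124 and 168 bases before its start. Wipf1, which binds the Wiskott-Aldrich protein, was called at -1.14 ± 0.23 (adjusted p = 0.035), so that Was and its partner both fell. The motif was found in 5 of 53 lower genes with a promoter in the table (9.43%), in 0 of 23 higher genes and in 453 of 14452 genes in all (3.13%). For the gamma-activated site TTCNNNGAA the counts were 5 of 53 lower genes (9.43%), 2 of 23 higher genes (8.70%) and 7.42% of all. The PU.1 letters GAGGAAGT were in 1 of 53 lower genes (1.89%) against 2.80% of all. These counts describe letters in a short window and were not tested.

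Genes that rose by day 28 were fewer and smaller in change. Sncg, gamma-synuclein, which is abundant in fat cells and sensory neurons, read 10.99, 9.82, 10.83 and 11.13 at day 28 and 8.59, 8.92, 8.61 and 9.16 at day 14. It rose by 1.88 ± 0.41 (adjusted p = 0.045), the largest rise among the calls. Tmem119, a transmembrane protein of osteoblasts and microglia, read 6.38, 7.6, 6.45 and 6.69 at day 28 and 4.79, 5.43, 4.32 and 5.08 at day 14 (1.87 ± 0.38, adjusted p = 0.035). Day 28 replicate 2, the array with high hair genes, was the highest for Tmem119 and the lowest of its group for Sncg. Zfp532, a zinc finger gene, read 7.67, 7.72, 7.31 and 7.35 at day 28 and 6.53, 6.37, 5.63 and 6.13 at day 14 (1.34 ± 0.22, adjusted p = 0.018). Smaller rises were called for Slc25a35, a mitochondrial carrier (1.01 ± 0.20, adjusted p = 0.035), Dhodh, the mitochondrial enzyme of pyrimidine synthesis (0.89 ± 0.20, adjusted p = 0.047), and Gart, an enzyme of purine synthesis (0.76 ± 0.17, adjusted p = 0.047). The mitochondrial ribosomal proteins Mrps17 and Mrps27 rose by 0.40 ± 0.07 (adjusted p = 0.022) and 0.54 ± 0.11 (adjusted p = 0.038). The chromatin enzymes Smyd2, a lysine methyltransferase, and Hdac2, a histone deacetylase, rose by 0.78 ± 0.17 (adjusted p = 0.046) and 0.63 ± 0.12 (adjusted p = 0.027). These genes had no overlap between the days, and their rises were all under 2-fold except that of Slc25a35.

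For the respiratory chain list, all 24 values were above 0, with a median of 0.24, and none was called by limma and 6 were higher at an unadjusted p under 0.05 (all genes 8.43%). Adipocyte genes had a median of 0.59, with 18 of 18 values above 0, none called and 5 higher at an unadjusted p under 0.05. Adipoq, the fat hormone adiponectin, read 12.55, 12.48, 13.42 and 13.91 at day 28 and 12.43, 12.14, 11.87 and 11.24 at day 14 (1.17 ± 0.56, adjusted p = 0.39). Lep, leptin, averaged 6.94 ± 0.77 at day 28 and 5.75 ± 0.85 at day 14 with overlapping arrays (1.20 ± 0.47, adjusted p = 0.28). Without the arrays of high Gapdh ratio the adipocyte median was 0.42, with 14 of 18 values above 0. Smooth muscle and pericyte genes had a median of 0.45, none of 14 called and 4 higher at an unadjusted p under 0.05, led by Smtn, smoothelin (1.17 ± 0.35, adjusted p = 0.13).

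**Figure D3:**
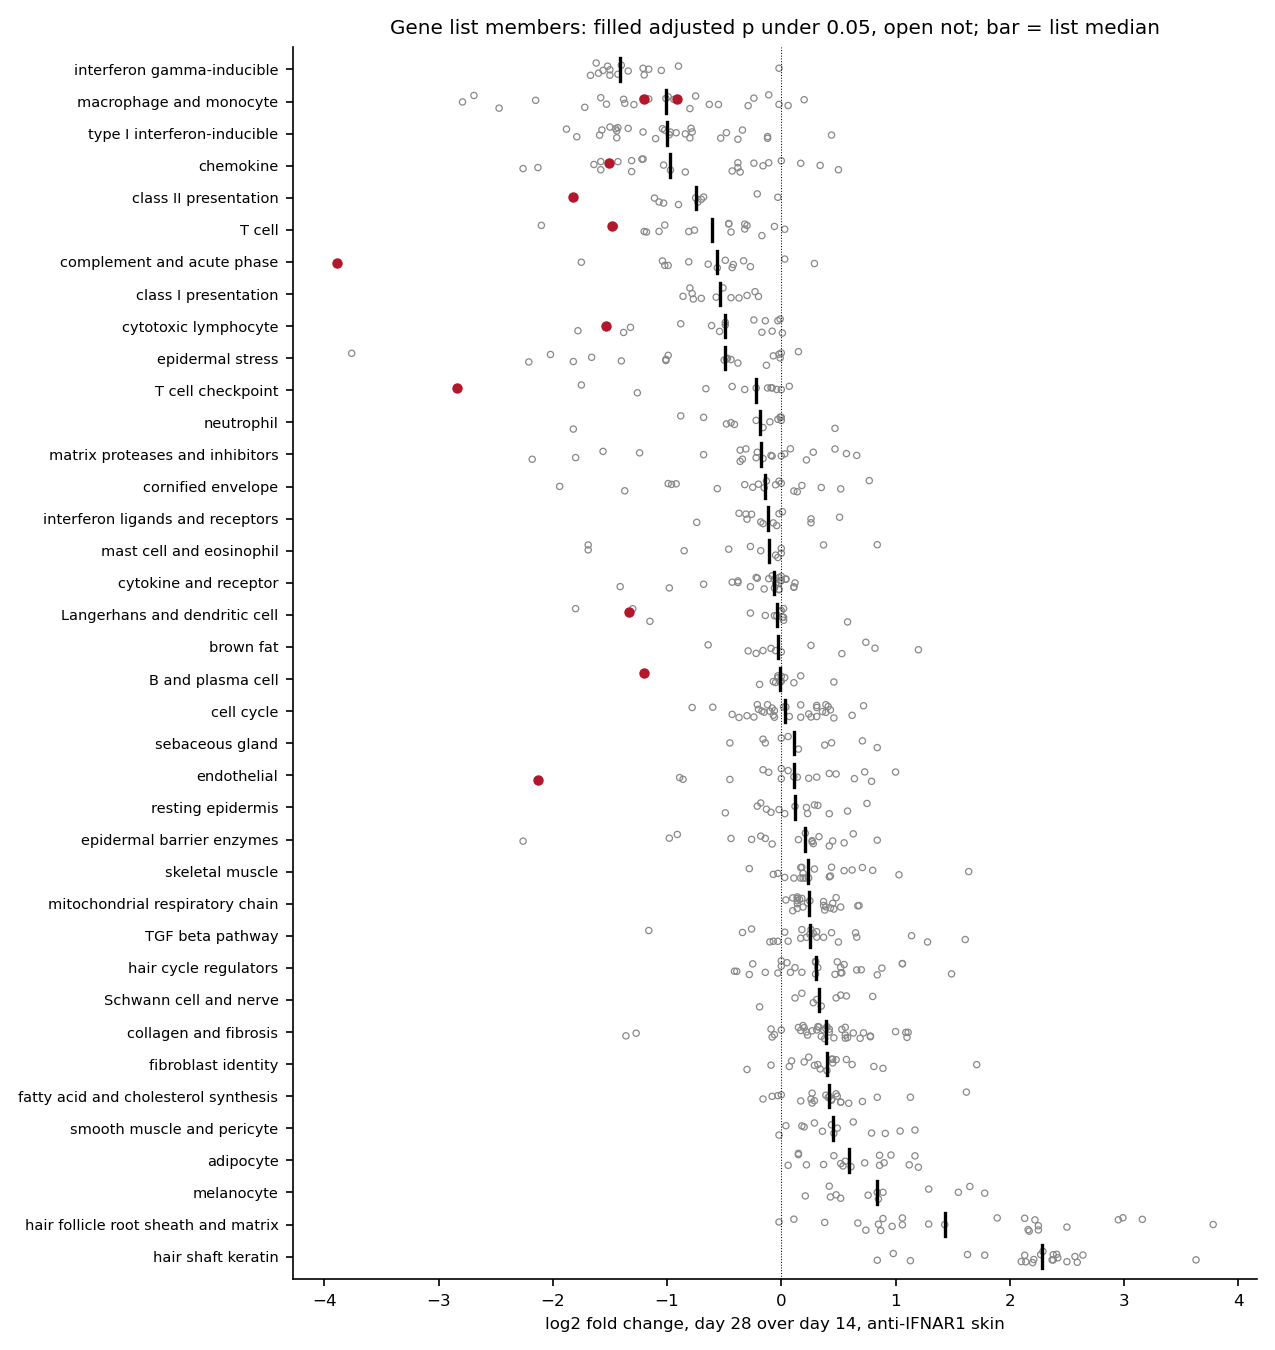
Log2 fold change, day 28 over day 14, of each measured gene of 38 lists in anti-IFNAR1 skin, lists ordered by their median (black bar). Filled red points passed the test and open points did not. The interferon-inducible, macrophage, chemokine and antigen presentation lists have medians between -1.41 and -0.54. The list of interferon ligands and receptors has a median of -0.12. The hair shaft and root sheath lists lie at the other end with no called gene.

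The hair lists had the highest medians, and these rested on 1 array. The mean of 22 hair shaft keratin genes was 4.52, 12.68, 4.55 and 4.83 on day 28 replicates 1 to 4 and between 4.47 and 4.49 on the day 14 arrays. The same array, day 28 replicate 2, had a mean of 11.85 for 25 root sheath and matrix genes, against 6.44 to 6.87 on the other day 28 arrays and 6.12 to 6.37 on the day 14 arrays. Krt25, an inner root sheath keratin, read 4.78, 15.85, 5.66 and 8.25 at day 28 and 4.71, 4.71, 5.09 and 4.89 at day 14. The list medians, 2.28 and 1.43 with all arrays, were 0.07 and 0.09 without day 28 replicate 2. Melanocyte genes behaved likewise, with a median of 0.84, or 0.00 without that array, as did 34 cell cycle genes, with 0.03 and -0.34. None of the genes on these 4 lists was called by limma, and 0, 5, 1 and 1 were higher at an unadjusted p under 0.05 (all genes 8.43%). Among 29 hair cycle regulators none was called by limma and 4 were higher at an unadjusted p under 0.05. Gli1, a target of hedgehog signalling, was above the day 14 arrays on all 4 day 28 arrays, at 5.25, 7.84, 5.57 and 5.21 at day 28 and 4.52, 4.44, 4.41 and 4.53 at day 14 (1.49 ± 0.42, adjusted p = 0.11). When the hair follicle mean entered the fit, 16 genes were called. High hair shaft means were not confined to anti-IFNAR1 skin. In syngeneic skin they were 6.41, 5.58, 11.23 and 9.54 at day 28 and 4.49, 5.08, 7.52 and 4.53 at day 14. In isotype skin they were 6.46, 4.46, 4.45 and 4.48 at day 28.

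**Figure D4:**
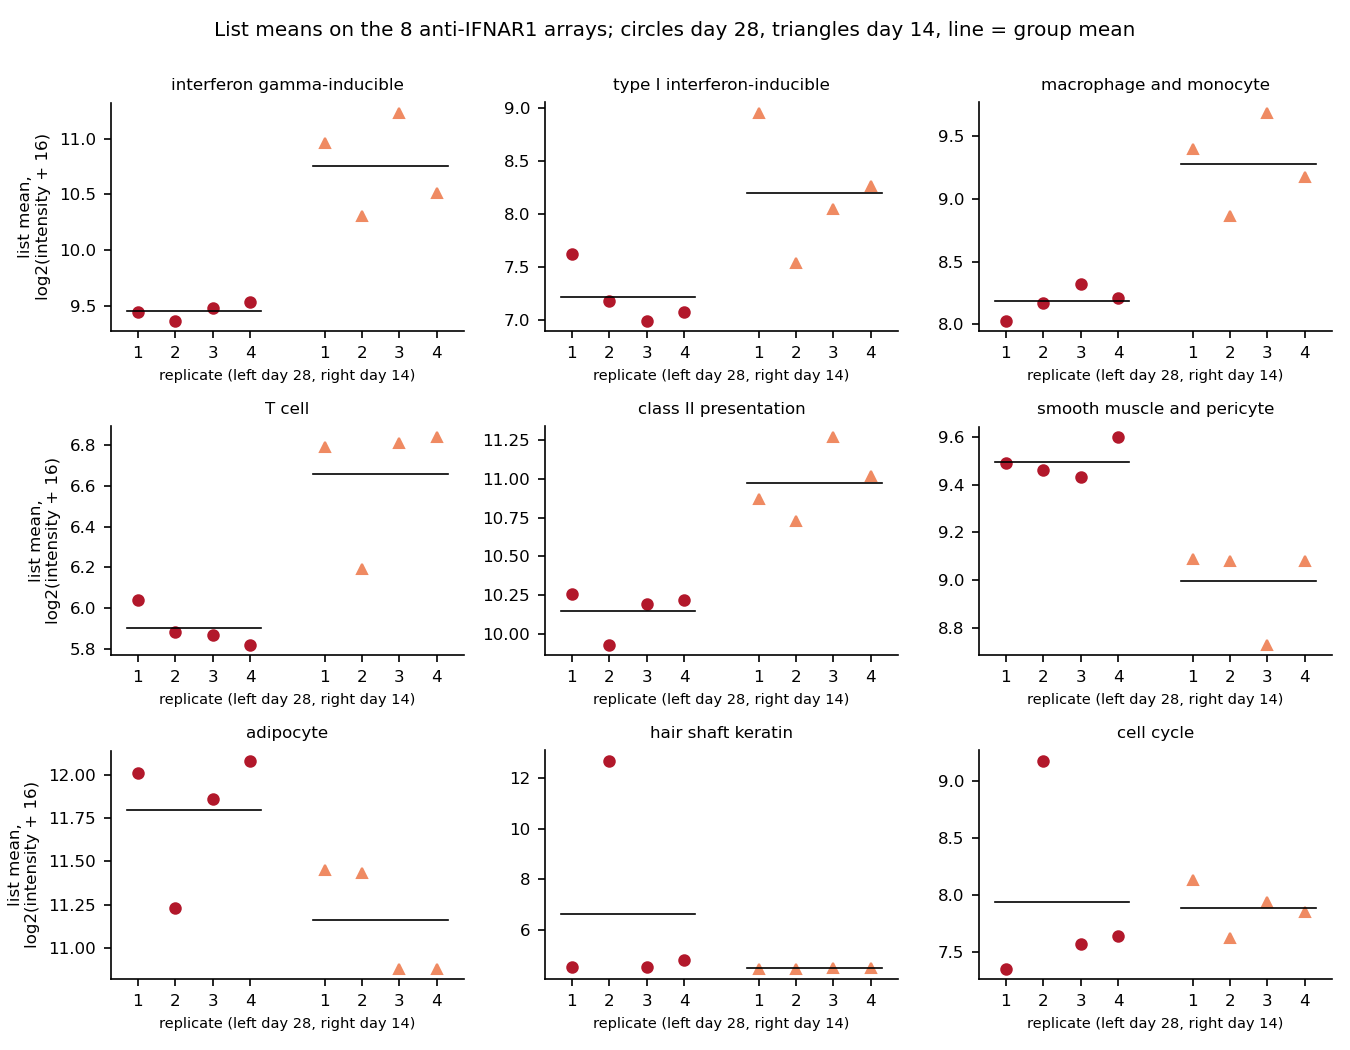
Mean level of 9 gene lists, as log2 of intensity plus 16, on the 8 anti-IFNAR1 arrays, day 28 replicates (circles) left of day 14 replicates (triangles), with lines for the group means. The immune lists have lower group means at day 28, while hair shaft keratin and cell cycle genes are high on day 28 replicate 2 alone, at 12.68 and 9.18.

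No gene of the matrix lists passed the test. Of 38 collagen and fibrosis genes none was called by limma, and 2 were higher and 1 lower at an unadjusted p under 0.05 (all genes 8.43% higher and 4.59% lower). The median was 0.39, or 0.22 without day 28 replicate 2. Col1a1, the main chain of type I collagen, averaged 12.1 at day 28 and 11.01 at day 14 (1.09 ± 0.78, adjusted p = 0.59). Eln, elastin, had a change of 1.11 ± 0.45 (adjusted p = 0.29), and Ccn2, the connective tissue growth factor, read 11.06, 10.02, 11.84 and 11.36 at day 28 and 12.4, 12.51, 12.16 and 12.26 at day 14 (-1.27 ± 0.39, adjusted p = 0.15). Elastin and Ccn2 therefore pointed opposite ways, neither past the threshold. Among 22 proteases and inhibitors, Mmp12, the macrophage elastase, read 5.27, 5.69, 5.36 and 4.89 at day 28 and 8.2, 7.04, 6.87 and 7.82 at day 14 (-2.18 ± 0.75, adjusted p = 0.21), and Timp1, a metalloproteinase inhibitor, changed by -1.80 ± 0.66 (adjusted p = 0.24). Day 14 replicate 3, which had the Gapdh ratio 4.81, was the lowest of its group for the collagen, fibroblast and smooth muscle lists. The part of RNA integrity in their medians was not tested.

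The same test in isotype skin called 400 genes (2.20%) and in syngeneic skin 14 (0.0770%). In common with the anti-IFNAR1 calls were 11 isotype calls, all lower (10.9% of the anti-IFNAR1 calls and 2.8% of the isotype calls), among them Cd86, Cd22, Ifi44l, Aoah and Apobec1, the editing enzyme of apolipoprotein B. With syngeneic skin 7 calls were shared (6.9% of the anti-IFNAR1 calls and 50.0% of the syngeneic calls), among them C1qb, Ly86 and Laptm5, a lysosomal protein of haematopoietic cells. Of the 70 lower calls, 59 had a negative change in isotype skin and 67 in syngeneic skin. Of the 31 higher calls, 22 had a positive change in isotype skin and 27 in syngeneic skin. Over all genes the median change was 0.00 in isotype skin and -0.01 in syngeneic skin. The type I interferon-inducible list had medians of -1.0 in anti-IFNAR1 skin, -0.76 in isotype skin and -1.06 in syngeneic skin, and the interferon gamma-inducible list -1.41, -0.76 and -2.08. The syngeneic day 14 arrays were split on the interferon gamma-inducible list, with means of 11.3, 10.19, 7.63 and 7.92, and day 28 means of 7.12 to 7.65. Its syngeneic median was -1.3 without day 14 replicate 1 and -2.66 without day 14 replicate 3.

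The difference in day change was tested directly. Minus the isotype change, 13 genes (0.0715%) passed, 7 with a higher (0.0385%) and 6 with a lower (0.0330%) value in anti-IFNAR1 skin (4 and 10 after quantile normalization), and 2468 (13.6%) had an unadjusted p under 0.05. For the 6 lower genes the isotype changes lay between 1.09 and 2.75, while the anti-IFNAR1 changes did not pass the test. Sprr2k, a small proline-rich protein of the cornified envelope, read 4.74, 4.7, 4.76 and 4.76 at day 28 and 4.76, 4.73, 4.74 and 4.74 at day 14 in anti-IFNAR1 skin, whereas in isotype skin it ranged between 6.44 and 6.86 at day 28 and between 4.74 and 5.06 at day 14. The difference in change was -1.74 ± 0.12 (adjusted p = 1.2e-07). Lce1g, a late cornified envelope gene, read 5.64, 6.09, 5.42 and 5.63 in isotype skin at day 28 and differed by -1.14 ± 0.14 (adjusted p = 0.0021). In all groups but isotype day 28, Sprr2k and Lce1g lay near the bottom of the scale. Their small pooled errors thus come largely from arrays with little room to vary. Nccrp1 differed by -2.08 ± 0.33 (adjusted p = 0.027), Cpa4, a carboxypeptidase, by -2.12 ± 0.36 and Mall by -1.64 ± 0.28 (adjusted p = 0.035 each). Ighg3, an immunoglobulin constant region, read 5.19, 4.92, 5.14 and 5.17 at day 28 and 5.17, 5.17, 5.33 and 6.33 at day 14 in anti-IFNAR1 skin, and 7.26 to 9.05 at day 28 and 5.13 to 6.58 at day 14 in isotype skin (-3.15 ± 0.50, adjusted p = 0.027).

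On the other side, the 7 genes had a higher change in anti-IFNAR1 skin than in isotype skin, and of these only Sncg was a called rise between the days. Sncg changed by 1.88 ± 0.41 in anti-IFNAR1 skin and by -1.42 ± 0.41 in isotype skin, a difference of 3.30 ± 0.58 (adjusted p = 0.035). Fabp4, the fatty acid binding protein of adipocytes, read 15.37, 15.01, 15.44 and 15.44 at day 28 and 15, 15.14, 14.75 and 14.55 at day 14 in anti-IFNAR1 skin. In isotype skin it lay between 13.23 and 14.15 at day 28 and between 14.52 and 15.2 at day 14, so that the difference was 1.76 ± 0.31 (adjusted p = 0.038). Smoc1, a basement membrane protein, differed by 2.39 ± 0.44 (adjusted p = 0.041), Tlcd4 by 2.51 ± 0.44 (adjusted p = 0.035), Slc5a3, the inositol transporter, by 1.88 ± 0.31 (adjusted p = 0.035), Alad, an enzyme of haem synthesis, by 1.77 ± 0.32 (adjusted p = 0.038) and P2ry13, a nucleotide receptor, by 1.56 ± 0.28 (adjusted p = 0.038). For each of them every isotype day 28 array was below every isotype day 14 array. P2ry13 read 5.05, 4.86, 5.27 and 5.48 at day 28 and 5.66, 4.91, 4.86 and 5.12 at day 14 in anti-IFNAR1 skin. In isotype skin it ranged between 5.07 and 5.6 at day 28 and between 6.46 and 6.96 at day 14. The count of 13 was also unstable: it was 2 without day 14 replicate 2, day 14 replicate 4, day 28 replicate 3 or day 28 replicate 4 of anti-IFNAR1 skin, 106 without day 28 replicate 2, and between 8 and 68 without single isotype arrays.

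**Figure D5:**
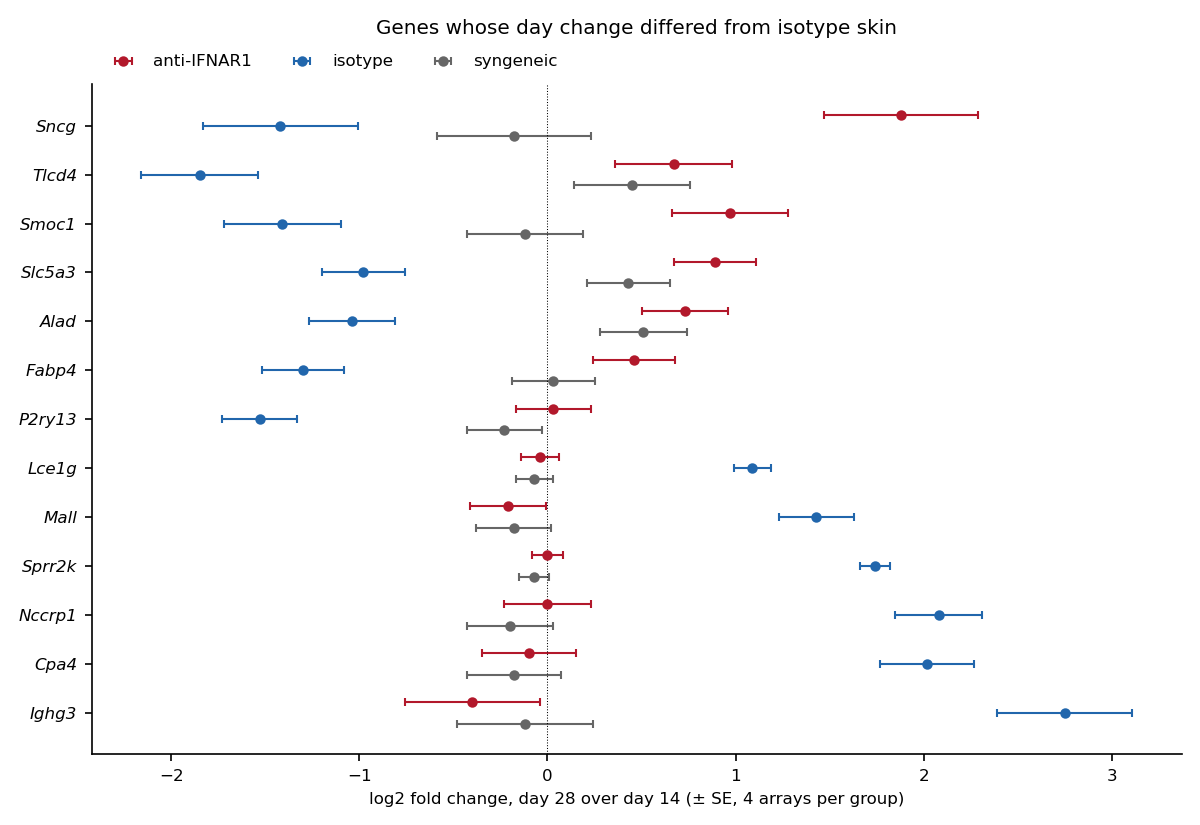
Log2 fold change, day 28 over day 14, ± SE (n = 4 arrays per group and day) in anti-IFNAR1 (red), isotype (blue) and syngeneic (grey) skin for the 13 genes whose change differed between anti-IFNAR1 and isotype skin. For the lower 6 genes, from Lce1g to Ighg3, the isotype value is above 1 while the others lie near 0.

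List medians of the day change were also set side by side. For epidermal stress genes, such as the wound keratins, the median change was -0.49 in anti-IFNAR1 skin, 1.54 in isotype skin and -0.27 in syngeneic skin, and 13 of 20 members had a lower change than in isotype skin at an unadjusted p under 0.05 (all genes 4.08%), none of them called. Krt16, a keratin of wounded epidermis, read 9.4, 10.08, 8.39 and 8.99 at day 28 and 12.68, 10.3, 11.8 and 10.9 at day 14 (-2.21 ± 0.95, adjusted p = 0.33), against 16.12, 15.25, 14.93 and 15.72 at day 28 and 14.69, 14.77, 14.82 and 9.22 at day 14 in isotype skin. Isotype day 14 replicate 4 stood apart from the other isotype day 14 arrays, with epidermal stress means of 7.7 against 10.63 to 11.68 and cornified envelope means of 9.93 against 11.33 to 11.58. Without it the isotype change of Krt16 was 0.74, against 2.13 with all arrays, and the isotype median of the epidermal stress list was 0.67, with 9 of 20 members lower in the difference (all genes 3.33%). Cornified envelope genes had medians of -0.14 in anti-IFNAR1 skin and 1.16 in isotype skin, with 13 of 20 lower in the difference at the same unadjusted threshold, or 1.12 and 12 of 20 without that array. Neutrophil genes had -0.19 and 0.94, with 8 of 14 lower, or 0.78 and 6 of 14 without that array. The lists share genes: S100a8, S100a9 and Lcn2 are on the neutrophil and epidermal stress lists, and Sprr1b is on the epidermal stress and cornified envelope lists. Adipocyte genes had 0.59 and -0.95, with 13 of 18 higher (all genes 9.49%), of which Fabp4 was called. Minus the syngeneic change, limma called no gene. There, 1005 genes (5.52%) had an unadjusted p under 0.05, and the lowest adjusted p was 0.10. A p that misses the threshold does not show that both treatments changed alike.

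Against syngeneic skin of the same day, anti-IFNAR1 skin differed in 6 genes at day 28 (0.0330%) and in 204 at day 14 (1.12%), of which 62 were higher (0.341%) and 142 lower (0.781%). Each comparison uses the anti-IFNAR1 arrays of its day, which also enter the day change, so it is not independent of that change. Neither count was refitted without single arrays or in other settings. At day 14 the Gapdh ratio reached 6.36 in syngeneic and 4.81 in anti-IFNAR1 skin, against 4.10 and 3.85 at day 28. Its part in the counts was not tested. The smaller count at day 28 does not show that the 2 skins were alike. The 6 genes at day 28 were all higher in anti-IFNAR1 skin, and they are named because they are all there were. They were T cell genes and immunoglobulin genes: Cd3d (1.70 ± 0.23, adjusted p = 0.0085), the T cell receptor gene Trav9d-3 (1.20 ± 0.20, adjusted p = 0.03), Cxcr6 (1.47 ± 0.25, adjusted p = 0.033), the lymphocyte membrane gene Ms4a4b (3.41 ± 0.50, adjusted p = 0.015), the immunoglobulin joining chain Jchain (3.85 ± 0.59, adjusted p = 0.021) and the IgA constant region Igha (4.01 ± 0.67, adjusted p = 0.033). Cd3d ranged between 5.74 and 6.59 in anti-IFNAR1 skin and between 4.26 and 4.40 in syngeneic skin at day 28. Igha read 11.17, 11.53, 8.82 and 12.54 at day 28 and 11.06, 9.7, 9.3 and 9.72 at day 14 in anti-IFNAR1 skin, against 6.83 to 7.18 at day 28 in syngeneic skin. Between the days, Cd3d, Trav9d-3 and Cxcr6 had called falls in anti-IFNAR1 skin, whereas the changes of Ms4a4b (-2.10 ± 0.50, adjusted p = 0.061) and Igha (1.07 ± 0.67, adjusted p = 0.53) did not pass, the Igha arrays overlapping. Hosts of this genotype make no immunoglobulin of their own.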

How the data were processed

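Skin RNA was measured on 24 Affymetrix mouse arrays. The deposited table gives a linear intensity per probe set, between 1.68 and 92640.3, and the sources used here do not say how the authors summarised and scaled it. Of 45101 probe sets, 34945 had 1 gene symbol, 932 several, 9160 none listed and 64 were controls. Symbols were updated through RefSeq names, and the probe set with the highest mean stood for each of 18193 genes. The log2 of intensity plus 16 was fitted with limma 3.58.1 (R 4.3.3), 1 mean for each of 6 groups over all 24 arrays, with 18 residual degrees of freedom, Benjamini-Hochberg adjustment over all genes and a threshold of 0.05. Errors of changes are standard errors from a spread pooled over the 6 groups, so they can differ from the spread of the arrays printed beside them. The number of arrays limits the precision. No 2 arrays were identical.

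The members and the 39 gene lists (716 genes measured) were chosen with earlier results of these data known. Named genes were the 15 largest rises and 15 largest falls among calls without overlap, the called or largest members of each list, other list members given for their values, and the called differences between day changes. Other called genes in the text, such as Was, Syk, Gsdmd, the Naip genes, Parp14, Tnfrsf1b, Wipf1, Laptm5, Hdac2, Mrps17, Mrps27 and the genes called against syngeneic skin, were chosen after their values were seen. Promoters came from RefSeq (GRCm38.p6). Alternatives covered the scaling, offset, probe set choice, filter, prior, covariates, replicate block and each array left out.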

Additional observations from a re-analysis of the deposited data

Results flagged for a closer look

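Within the groups of 4 arrays, 1 array was set apart when its gap to the nearest other array took more of the group's range than Dixon's limit allows; that share is given beside each name. Of 254 sets of 4 values examined, 27 passed, and chance alone gives about 1 in 20. Many of these lay on day 28 replicate 2. It was the highest day 28 array for the hair shaft keratin (0.962), root sheath and matrix (0.92), melanocyte (0.942) and cell cycle (0.843) lists, and for Gart (0.921), Gli1 (0.862) and Smtn (0.889). The same array was the lowest for the class I presentation (0.981) and endothelial (0.831) lists, and for Cd22 (0.959), Csf1r (0.838), Fabp4 (0.834) and Rag2 (0.921). Without this array the change of Csf1r was -0.74 (limma adjusted p = 0.036) and that of Cd22 -1.15, no longer past the threshold (adjusted p = 0.1).

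Day 14 replicate 3 was the lowest of its group for the collagen and fibrosis (0.942), TGF beta pathway (0.873), fibroblast identity (0.866) and smooth muscle and pericyte (0.959) lists. It was the highest for the 3 measured erythrocyte genes (0.887), Lce1g (0.916) and Rag2 (0.921). Day 14 replicate 2 was the lowest for the T cell list (0.935), Rsad2 (0.965) and Trav9d-3 (0.865). Single values set apart were Ighg3 on day 14 replicate 4 (highest, 0.855), Gzmk (highest, 0.855) and Mrps17 (highest, 0.9) on day 28 replicate 3, and Timp1 on day 28 replicate 1 (lowest, 0.917).

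The day change differed between anti-IFNAR1 and isotype skin, by the test of that difference (limma, adjusted p under 0.05), in 13 genes. Anti-IFNAR1 minus isotype, the log2 differences were 3.30 for Sncg, 2.51 for Tlcd4, 2.39 for Smoc1, 1.88 for Slc5a3, 1.77 for Alad, 1.76 for Fabp4 and 1.56 for P2ry13. They were -3.15 for Ighg3, -2.12 for Cpa4, -2.08 for Nccrp1, -1.74 for Sprr2k, -1.64 for Mall and -1.14 for Lce1g.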

How the results depend on the processing

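All 101 genes called between day 28 and day 14 kept their direction in every setting they were measured in. For the 99 of them without overlap, leaving out 1 array cannot turn the direction. Over 2660 values of named genes under alternatives 2084 stayed on the same side of the threshold, 521 fell below it, 10 passed it, 45 values with no call moved and none reversed. The count of calls was 163 after removal of genes with a mean under 5, 20 with only the arrays compared in the fit, 16 with the hair follicle mean as covariate and 3 without arrays of Gapdh ratio above 4; leaving out 1 array gave 1 to 166. The 13 differences from isotype skin became 36 after centring of array medians, 57 after removal of dim genes, 27 with an offset of 1, 20 with a trended and robust prior, 6 with the Gapdh covariate, 8 without high Gapdh ratios, 76 with the hair covariate, 2 with only the arrays compared and 2 to 106 without 1 array. Quantile normalization gave 14, of which 4 were higher and 10 lower, against 7 and 6. The difference from syngeneic skin, 0 genes, became 1 after centring, 1 with the hair covariate and 0 to 3 without 1 array, with 3 without anti-IFNAR1 day 28 replicate 2 or syngeneic day 14 replicate 2 and 1 without syngeneic day 28 replicate 4. Replicate numbers did not pair the arrays: same-numbered day 28 and day 14 anti-IFNAR1 arrays correlated at -0.42, -0.06, 0.00 and -0.21 in their deviations from the group means. A fit with the replicate number as a block called 35 genes (10 higher, 25 lower). The causes of these shifts were not tested, apart from the fewer arrays or genes that some settings have by construction.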
